A study of Oryza sativa Japonica Group with 6 samples.

Results

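The cytosolic class I small heat shock proteins of rice were followed in developing endosperm, as 9 named gene loci in 2 clusters. The chromosome 1 cluster holds 5 of them (LOC_Os01g04340 to LOC_Os01g04380) and the chromosome 3 cluster 4 (LOC_Os03g15960, LOC_Os03g16020, LOC_Os03g16030 and LOC_Os03g16040). They were chosen by locus identifier, with earlier results of these data known. Of the 9, 6 matched a row among the 29907 mRNA gene rows of the expression table, 4 on chromosome 1 and 2 on chromosome 3. LOC_Os01g04340, LOC_Os03g16020 and LOC_Os03g16040 matched no row and were not analysed here. In rice nomenclature LOC_Os01g04370 is HSP16.9A, LOC_Os01g04380 is HSP16.9B, LOC_Os03g15960 is HSP17.9A and LOC_Os03g16030 is HSP18.1. These names were paired with the identifiers by hand, and RefSeq's gene table lists each of them on the chromosome that the identifier gives. HSP18.1 was assigned after that table was seen, so the table is no independent check of it, and HSP16.9B occurs there 2 times.

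Small heat shock proteins are chaperones that need no ATP. They form large oligomers, bind proteins that begin to unfold and hold them in a state from which the HSP70 and HSP100 machinery can refold them. Class I members act in the cytosol, are among the transcripts most strongly induced when a plant is heated, and also accumulate in maturing seeds of many plants without heat. Their genes are switched on by heat shock factors, transcription factors that bind heat shock elements in the promoter.

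The samples are endosperm of the Japonica cultivar NingJing1 collected 10 days after pollination. Plants grown in the field entered growth chambers when they booted. The high temperature chamber (3 samples) stood at 36 °C in the day and 33 °C at night, and the normal temperature chamber (3 samples) at 28 °C and 25 °C. The labels name no mutant or transgene in either group. Temperature regime and growth chamber differ together between the groups and cannot be told apart. Libraries of total RNA freed of ribosomal RNA gave FPKM values, fragment numbers scaled by transcript length and by the size of the library, which can be set side by side between genes. The labels do not say whether samples of a group were taken from different plants, and the spread that p-values measure may be technical.

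Depth could not be read from the table, and FPKM summed to between 372847 and 380742 per high temperature sample and between 365035 and 370669 per normal temperature sample. Of 6 markers of starchy endosperm, which include the glutelin GLUA2 and the ADP-glucose carrier BT1, all were far above 0 in every sample, 2 rose and 4 fell, and together they summed to between 33668.3 and 34598.6 FPKM under high and between 30006.0 and 30812.2 FPKM under normal temperature. That sum is mostly the glutelins GLUA2 and GLUB1, which rose, while the ratio of mean FPKM was 0.357 for GBSSI, 0.261 for BEIIb, 0.227 for BT1 and 0.232 for PPDKB, the 4 that fell. In the bulk tissue, fewer cells of a type and less RNA per cell cannot be told apart.

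Of the class I genes, 1 in each cluster was more abundant under high temperature. LOC_Os03g15960 on chromosome 3 was 5.12-fold and LOC_Os01g04380 on chromosome 1 was 3.05-fold more abundant than under normal temperature, as ratios of mean FPKM. The other 4 genes with a row either had a value that dropped out in 1 or more libraries or lay near 0. Differences were tested with limma on log2(FPKM + 1) over 17050 mRNA genes with a mean of at least 0.5 FPKM, with Benjamini-Hochberg adjustment. Of the 5 members tested, 2 rose, none fell and 3 did not pass, by limma; the fall count was also 0 at an unadjusted p under 0.05. Over all tested genes 13.0% rose and 22.8% fell, and rises made up 36.4% of calls, or 47.0% after scaling each sample by its sum over all but the 100 most abundant genes. Both members that rose did so by more than 1 on the log2 scale, and 3.01% of tested genes were called higher with a log2 fold change of at least 1. The count leaves out 4 of the 9 loci, and 1 of the tested members (LOC_Os01g04360) reached the minimum through high temperature samples alone, so this count does not describe the whole family.

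**Figure D1:**
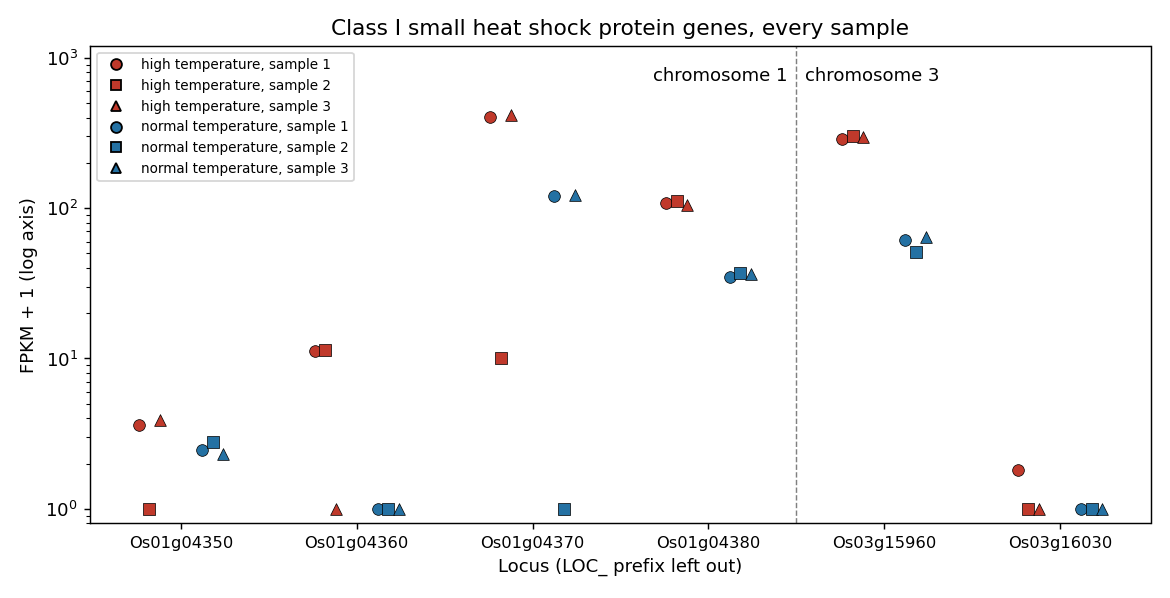
FPKM + 1 on a log axis for each of the 6 members with a row, with 1 point per sample (red, high temperature; blue, normal temperature; marker shape, sample number). LOC_Os01g04380 and LOC_Os03g15960 separate the groups without overlap, while LOC_Os01g04370 has its sample 2 far below samples 1 and 3 at both temperatures.

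On chromosome 3, LOC_Os03g15960 had 287.44, 299.94 and 298.40 FPKM under high temperature, against 60.42, 49.74 and 62.83 FPKM under normal temperature. The distance between the groups was large against the spread within them, with means of 295 ± 6.82 FPKM under high and 57.7 ± 6.97 FPKM under normal temperature (SD, n = 3 each). Its log2 fold change was 2.34 with a standard error of 0.0939 (limma, adjusted p = 9.9e-05). By mean level it was the mRNA gene of rank 86 under high and of rank 557 under normal temperature. By size of log2 fold change it was rank 88 of the tested genes, and 58 genes called higher, itself included, had a fold change at least as large.

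The other chromosome 3 gene with a row, LOC_Os03g16030, was listed at 0.81 FPKM in high temperature sample 1 and at 0 in the other 5 samples. Its mean was under the minimum and it was not tested. The chromosome 3 signal was therefore that of LOC_Os03g15960 in every sample, and the cluster summed to 296 ± 6.35 FPKM under high and 57.7 ± 6.97 FPKM under normal temperature (SD, n = 3 each).

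On chromosome 1, LOC_Os01g04380 had 106.76, 110.38 and 103.23 FPKM under high temperature, against 33.75, 35.92 and 35.25 FPKM under normal temperature. Samples of each group again lay close together, with means of 107 ± 3.58 FPKM under high and 35.0 ± 1.11 FPKM under normal temperature (SD, n = 3 each), and no overlap of the groups. Its log2 fold change was 1.58 with a standard error of 0.0444 (limma, adjusted p = 3.4e-05). It was of rank 249 by mean level under high and of rank 1021 under normal temperature, and 202 genes called higher, itself included, changed at least as much. All 3 high temperature samples lay above all 3 normal temperature samples for LOC_Os03g15960 and LOC_Os01g04380, an order that 19.2% of tested genes showed. The groups did not overlap, in one or the other direction, for 51.7% of tested genes.

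**Figure D2:**
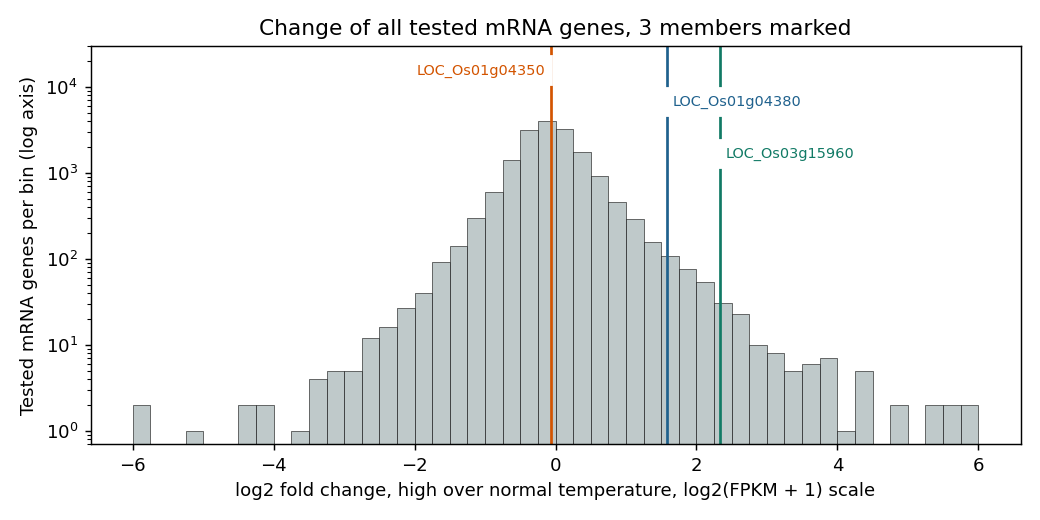
Number of tested mRNA genes (log axis) by log2 fold change in bins 0.25 wide, high over normal temperature, with genes beyond the ends counted in the outermost bins. Vertical lines mark LOC_Os01g04350 at -0.07 in the bulk of the distribution, and LOC_Os01g04380 at 1.58 and LOC_Os03g15960 at 2.34 in its upper tail.

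The level order of these genes held in each sample, with LOC_Os03g15960 above LOC_Os01g04380. The ratio of their FPKM was 2.69, 2.72 and 2.89 in high temperature samples and 1.79, 1.38 and 1.78 in normal temperature samples. The ratio was larger in every high temperature sample than in any normal temperature sample, and on the log2(FPKM + 1) scale it averaged 1.46 ± 0.0553 under high and 0.70 ± 0.208 under normal temperature (SD, n = 3 each), a difference of 0.76. An exact two-sided permutation test over the samples gave p = 0.1, the smallest that 3 samples against 3 allow, and 0.3 after adjustment over the 3 pairs formed by LOC_Os03g15960, LOC_Os01g04380 and LOC_Os01g04370. This pair of genes was compared after its values were seen. With 3 samples against 3 the test could not reach 0.05, so it cannot decide whether these genes differ in response.

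LOC_Os01g04370 was the most abundant member wherever it did not drop out. Its values were 400.29, 9.01 and 418.28 FPKM under high temperature, against 120.29, 0 and 120.81 FPKM under normal temperature. Sample 2 of each group was far below samples 1 and 3, and the groups overlapped. Over all 6 samples it did not pass, with a log2 fold change of 2.28 and a standard error of 2.52 (limma, adjusted p = 0.53), and that value rests on the samples numbered 2. Without both of them its log2 fold change was 1.75 (limma on 2 samples per group, adjusted p = 0.0052), and with only its own low values dropped it was also 1.75 (adjusted p = 0.00035). Without normal temperature sample 2 alone, which kept the 9.01 FPKM of high temperature sample 2, it became -0.03 (limma, adjusted p = 0.99). Leaving out samples on the strength of these values was decided after seeing the data.

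In the samples where it did not drop out, LOC_Os01g04370 was above its neighbour LOC_Os01g04380 by a similar ratio. The log2 ratio of LOC_Os01g04380 over LOC_Os01g04370 was -1.90 and -2.01 in high temperature samples 1 and 3, and -1.80 and -1.75 in normal temperature samples 1 and 3. In the samples numbered 2 it was 3.48 under high and 5.21 under normal temperature. LOC_Os01g04380 itself showed no such break, at 110.38 FPKM in high temperature sample 2 and 35.92 FPKM in normal temperature sample 2.

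The missing signal did not appear in the other measured members. The chromosome 1 cluster summed to 519.78, 129.82 and 524.39 FPKM under high temperature, against 155.51, 37.72 and 157.38 FPKM under normal temperature, so the sum dipped with LOC_Os01g04370 in both samples numbered 2. With LOC_Os01g04370 left out, the cluster summed to 119.49, 120.81 and 106.11 FPKM under high and to 35.22, 37.72 and 36.57 FPKM under normal temperature, a ratio of means of 3.16. Genes of this family are close copies of each other, and reads shared between copies may have been split by the authors' quantification. Whether that, or a locus without a row, took up the reads was not tested.

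**Figure D3:**
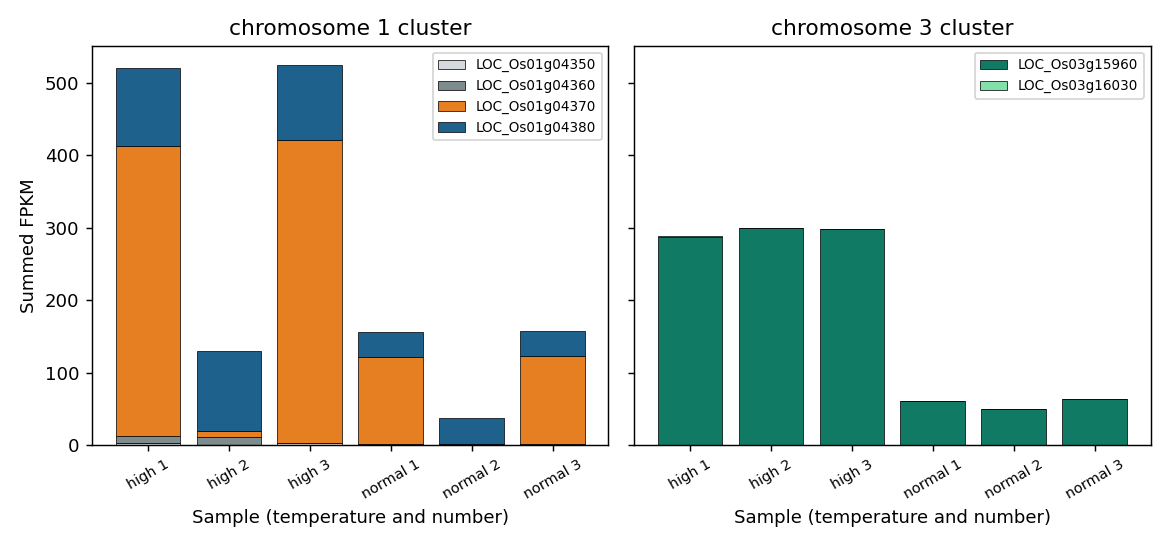
Summed FPKM of the members with a row, by sample (high temperature left, normal temperature right), stacked by gene, for the chromosome 1 and chromosome 3 clusters. The chromosome 1 sum falls to 129.82 FPKM in high temperature sample 2 and 37.72 FPKM in normal temperature sample 2 through LOC_Os01g04370 (orange), and the chromosome 3 sum shows no such dip.

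Over the table as a whole, drop-outs at the 5 FPKM minimum were no more frequent in the samples numbered 2 than in the others. Among mRNA genes with at least 5 FPKM in the other samples of the group, between 58 and 76 genes per high temperature sample and between 48 and 62 per normal temperature sample lay under 0.1 of the lower of those values. High temperature sample 2 had the fewest of its group with 58 genes, or 0.992%, and normal temperature sample 2 the fewest of its group with 48, or 0.775%. A drop-out in both samples numbered 2 was found for 6 of 5131 genes, or 0.117%, and the other pairings of a high with a normal temperature sample gave between 1 and 6 genes. At a minimum of 100 FPKM, 2 of 242 genes dropped out in high temperature sample 2, against 1 or 2 in the other high temperature samples, and 4 of 271 in normal temperature sample 2, against 3 or 4 in the other normal temperature samples. Among 195 genes with at least 100 FPKM in samples 1 and 3 of both groups, LOC_Os01g04370 was the one that dropped out in both samples numbered 2. None of the other 194 lay under -1 on the log2 scale in both. At the same minimum, high temperature sample 1 paired with normal temperature sample 3 also gave 1 gene, of 193. That is 0.518%, against 0.513% for the samples numbered 2, and the remaining pairings gave none.

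**Figure D4:**
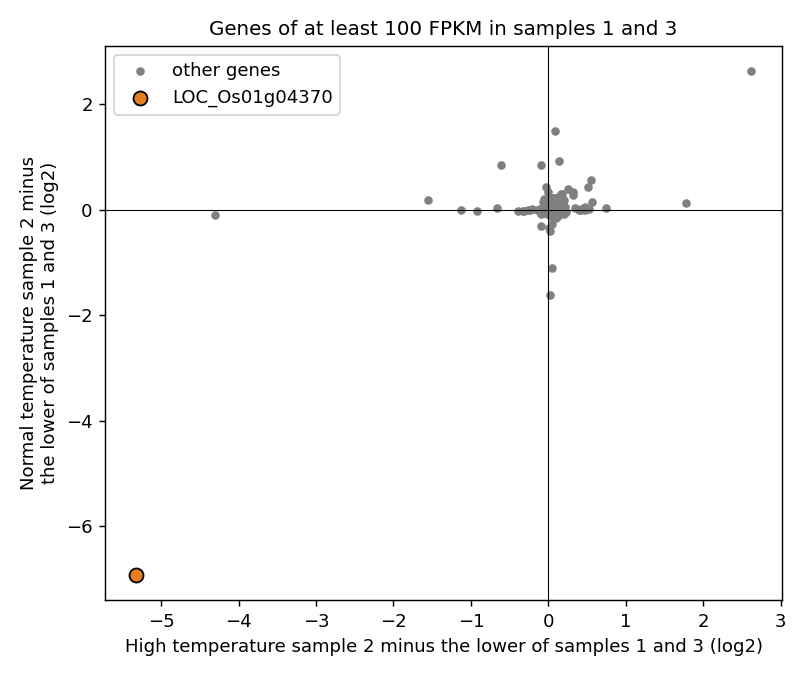
For 195 mRNA genes of at least 100 FPKM in samples 1 and 3 of both groups, sample 2 minus the lower of samples 1 and 3, as a difference of log2(FPKM + 1), under high temperature (horizontal) and normal temperature (vertical). LOC_Os01g04370 is the point at the lower left, and most genes sit near 0 on both axes. LOC_Os01g01470 lies the other way on both axes, at 2.617 under high and 2.622 under normal temperature. A value above 0 places sample 2 above the lower of samples 1 and 3, and not always above both.

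The remaining chromosome 1 genes were low. LOC_Os01g04360 was listed at 10.14, 10.43 and 0 FPKM under high temperature and at 0 in each normal temperature sample, so no fold is given. It was present in high temperature samples 1 and 2 and in no other sample, and did not pass (limma, adjusted p = 0.13), or passed with adjusted p = 0.00028 when high temperature sample 3 was left out. LOC_Os01g04350 had 2.59, 0 and 2.88 FPKM under high temperature, against 1.47, 1.80 and 1.32 FPKM under normal temperature. Its high temperature samples 1 and 3 lay above, and sample 2 below, every normal temperature sample, and its log2 fold change was -0.07 (limma, adjusted p = 0.94). Without high temperature sample 2 it was 0.57 (limma, adjusted p = 0.026).

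For LOC_Os01g04350 and LOC_Os01g04360 the call changed when 1 library was left out, high temperature sample 2 for LOC_Os01g04350 and high temperature sample 3 for LOC_Os01g04360. LOC_Os01g04370 did not pass with any 1 sample left out (limma, adjusted p between 0.29 and 0.99). A value of 0 in a table of FPKM can be a failed estimate as well as an absent transcript, and these could not be told apart here.

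Genes with neighbouring locus numbers did not share one direction. Of 17 other genes between LOC_Os01g04200 and LOC_Os01g04490, 8 were tested, of which 1 rose and 1 fell (limma), with log2 fold changes between -1.01 and 1.81. LOC_Os01g04390, the next locus number after the cluster, was listed at 1.25 FPKM in high temperature sample 2 and at 0 in the other samples. Of 16 other genes between LOC_Os03g15900 and LOC_Os03g16110, 13 were tested, of which 3 rose and 6 fell, with log2 fold changes between -0.70 and 1.05. Over all tested genes 35.8% were called in either direction.

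By likeness of pattern over the 6 samples, the chromosome 3 sum was matched most closely by LOC_Os01g27210 (Pearson r = 0.9999 on log2 values) and LOC_Os02g42230 (r = 0.9993). LOC_Os01g27210 had 25.31, 26.04 and 25.69 FPKM under high and 10.70, 9.36 and 10.87 FPKM under normal temperature. Such likeness was common, with r above 0.99 for 171 of 6666 genes of at least 5 FPKM, and the 6 samples fall into 2 groups. For the chromosome 1 sum 1 gene exceeded 0.99, LOC_Os10g29540 (r = 0.9983), with 76.04, 63.34 and 76.71 FPKM under high and 64.28, 54.24 and 65.75 FPKM under normal temperature, and LOC_Os02g11040 came next (r = 0.9884). Those genes share the dip in the samples numbered 2, in a far smaller size, and all points share the same 6 libraries.

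Small heat shock proteins of other compartments were set beside the class I genes, from a list of 9 loci of which 6 had a row and 4 were tested. HSP26.7 (LOC_Os03g14180), the chloroplast form, had 32.45, 32.27 and 34.33 FPKM under high temperature, against 4.42, 3.68 and 4.22 FPKM under normal temperature. It was the member of that list that rose, with a log2 fold change of 2.74 and a standard error of 0.071 (limma, adjusted p = 2.7e-05), and none fell. Under normal temperature its level was below those of LOC_Os03g15960 and LOC_Os01g04380 in every sample. HSP24.1 (LOC_Os02g52150), a mitochondrial form, had 8.17, 8.86 and 13.44 FPKM under high and 10.21, 7.17 and 10.71 FPKM under normal temperature (log2 fold change 0.09, not past the threshold). The 4 had a median log2 fold change of 0.95, against -0.08 over all tested genes. It includes a fitted value for HSP23.2, which was listed above 0 in high temperature sample 3 alone.

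The chaperones HSP70, HSP90 and HSP101 act on clients that small heat shock proteins hold. Of 11 loci for them, 10 were tested, of which none rose, 3 fell and 7 did not pass (limma), with a median log2 fold change of -0.08, the same as over all tested genes. The background was 13.0% of tested genes higher and 22.8% lower. At an unadjusted p under 0.05 HSP101 (LOC_Os05g44340), the disaggregase, was higher. It had 17.08, 17.41 and 27.50 FPKM under high and 13.68, 13.80 and 8.46 FPKM under normal temperature, without overlap of the groups and with adjusted p = 0.085. LOC_Os03g16860, of that list, fell to 31.8 ± 3.73 FPKM under high temperature, against 61.2 ± 7.21 FPKM under normal temperature (SD, n = 3 each; log2 fold change -0.92, adjusted p = 0.0039). LOC_Os09g30418, of the same list, fell by 0.31 on the log2 scale (adjusted p = 0.002). HSP70d (LOC_Os01g62290) fell by 0.63 (adjusted p = 0.034), a call that was lost in 8 of 18 alternatives. Among them were leaving out any high temperature sample, or normal temperature sample 1 (adjusted p between 0.062 and 0.099). Rescaling lost it too, with adjusted p = 0.056 under TMM scaling, 0.073 under quantile normalization and 0.059 without the 100 most abundant genes (limma). So did the sample number as a replicate block (limma, adjusted p = 0.096).

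Of 19 regulator genes, the heat shock factors and the coactivator MBF1c, 16 were tested, and 2 rose, 2 fell and 12 did not pass (limma; median log2 fold change -0.24). Over all tested genes 13.0% rose and 22.8% fell, and neither count of regulators was above that background. HSFA3 (LOC_Os02g32590), which in Arabidopsis acts in the heat response downstream of a DREB2 factor, had 10.08, 8.43 and 9.07 FPKM under high temperature, against 0.95, 2.20 and 1.20 FPKM under normal temperature. It rose with a log2 fold change of 2.09 and a standard error of 0.20 (limma, adjusted p = 0.0013), without overlap of the groups. HSFC2A (LOC_Os02g13800), a class C factor, rose to 1.97 ± 0.0794 FPKM under high temperature, against 0.767 ± 0.133 FPKM under normal temperature (SD, n = 3 each; limma, adjusted p = 0.0017). HSFA2C (LOC_Os10g28340), a class A factor, fell to 3.16 ± 0.596 FPKM under high temperature, against 7.51 ± 0.456 FPKM under normal temperature (SD, n = 3 each; limma, adjusted p = 0.0023). HSFB2B (LOC_Os08g43334) fell by 1.24 on the log2 scale (adjusted p = 0.017). The call was lost, at a similar size, when normal temperature sample 2 was left out (log2 fold change -1.16, adjusted p = 0.058), when sample 3 was (-1.22, adjusted p = 0.057) and when both samples numbered 2 were (-1.26, adjusted p = 0.11).

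HSFA2A (LOC_Os03g53340) was low in all samples, with 0.42, 0.25 and 0.26 FPKM under high and 0.30, 0.52 and 0.15 FPKM under normal temperature, and was not tested. MBF1C (LOC_Os06g39240), a coactivator induced by heat in other plants, had 1.0, 1.51 and 0 FPKM under high and 1.23, 2.88 and 2.40 FPKM under normal temperature (limma, adjusted p = 0.17). Each of the 19 was at 14.04 FPKM or less in every sample, against 33.75 FPKM or more for the class I genes LOC_Os01g04380 and LOC_Os03g15960.

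**Figure D5:**
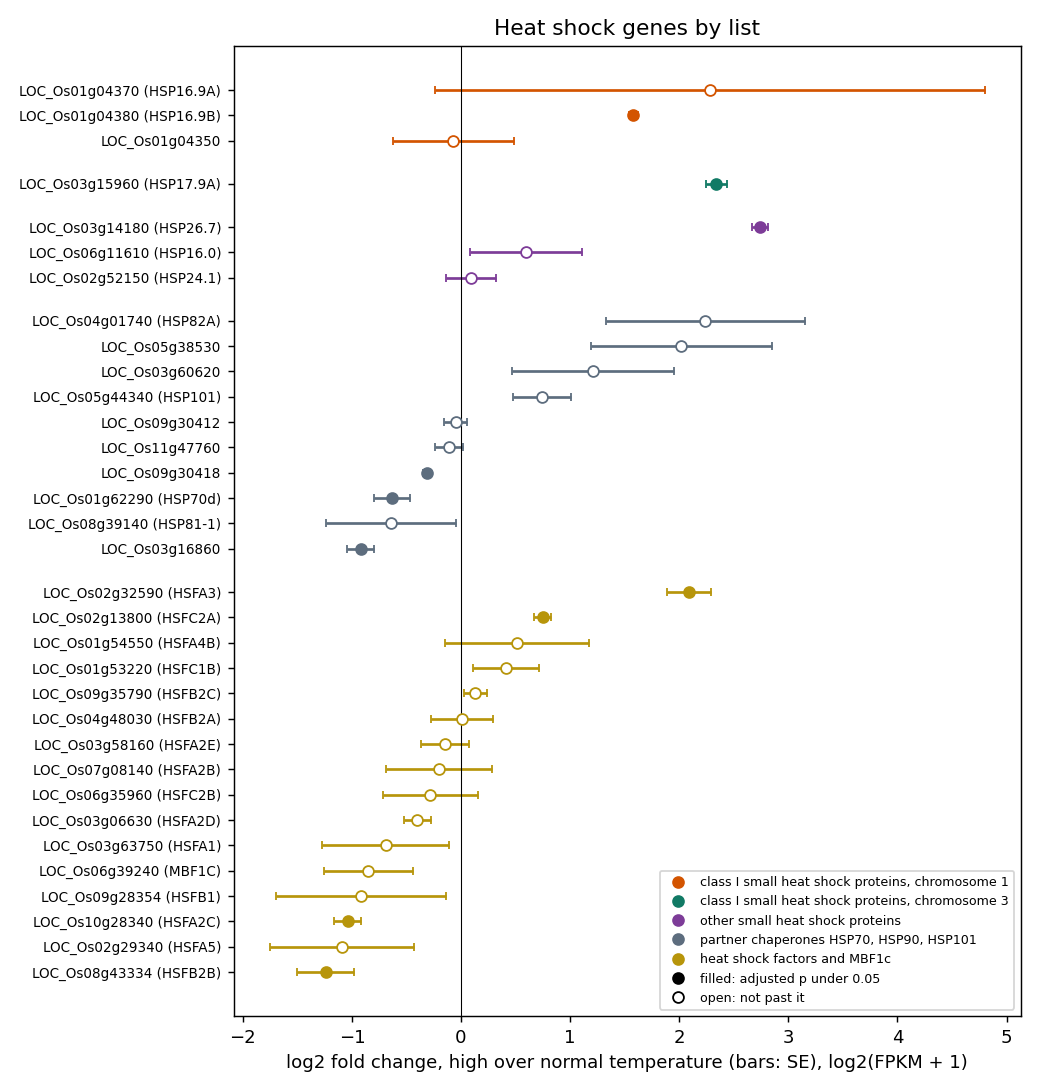
log2 fold change, high over normal temperature, with its standard error, for the tested genes of each heat shock list (filled points, adjusted p under 0.05 by limma). LOC_Os01g04380, LOC_Os03g15960, HSP26.7, HSFA3 and HSFC2A are the filled points to the right of 0, and LOC_Os01g04370 has the widest bar; tested genes listed at 0 in all normal temperature samples are not drawn.

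Markers of other grain tissues moved in the same samples. Of 5 embryo and aleurone markers 4 had a row, and their sum ranged from 837.4 to 937.2 FPKM under high and from 114.2 to 614.8 FPKM under normal temperature. The highest normal temperature sum was that of sample 2, where OLE16 was at 569.13 FPKM, against 112.16 and 74.31 FPKM in normal temperature samples 1 and 3. RAB16A, a dehydrin, and VP1, a transcription factor of seed maturation, rose (log2 fold changes 2.42 and 0.15). The oleosin OLE16 and the LEA protein gene EMP1 did not pass. OLE16 had 648.76, 656.43 and 678.88 FPKM under high temperature, without overlap of the groups. Its log2 fold change was 1.97 (limma, unadjusted p = 0.048, adjusted p = 0.11). EMP1 had 131.93, 3.54 and 5.0 FPKM under high and 4.18, 3.84 and 0.62 FPKM under normal temperature. None of the 4 was at 0 in any sample. Of 6 green pericarp markers 5 had a row, CAB2R fell, the other 4 did not pass, and the sum ranged from 100.2 to 130.7 FPKM under high and from 137.8 to 171.1 FPKM under normal temperature. The part of either tissue in the rise of LOC_Os03g15960 and LOC_Os01g04380 was not tested.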

How the data were processed

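The authors deposited FPKM values, per the file headers, in 1 column for each of 6 samples, rounded to 2 decimals. StringTie 1.3.0, HISAT2 2.0.4, cutadapt 1.10 and FastQC 0.10.1 are listed, with no roles, per the submitters' processing notes. For the genome build, annotation and strand use, nothing is given in the sources used here. Whole reads could not be recovered (18.4% of low values lay within 0.1 of a whole multiple of a gene's lowest value), so depth is unknown, and count models and intervals were not used.

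Groups follow the treatment label. limma 3.58.1 (R 4.3.3) was fitted to log2(FPKM + 1), which understates changes of low genes, with a trended prior variance, two-sided, without a replicate block, over all mRNA genes with a mean of at least 0.5 FPKM, at an adjusted p under 0.05. The scripts were tested on simulated data. A drop-out is a value under 0.1 of the lower of the 2 other samples of its group, where both are at least 5 FPKM.

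Members and lists were chosen with earlier results of these data known. Named were all members, called genes of the lists (up to 4 each way), HSP101, HSFA2A, HSFA2C, HSFB2B, MBF1C and HSP26.7, and the 2 genes most like each cluster sum; other genes were named after their values were seen. The deposited identifiers are not in the reference gene table (ASM3414082v1). Of 48 symbols paired by hand, 39 were found there, all on the identifier's chromosome. HSP70d, HSP82A, MBF1C, GLUB1, GBSSI, BEIIb, BT1, OLE16 and RAB16A were not, so these names are unchecked. HSP18.1 and HSP17.7 (LOC_Os03g16040) were assigned after the reference table was seen, so it is no independent check of them. A shared chromosome does not tell genes of the same cluster apart.

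Alternatives changed the pseudocount, filter, scaling, variance prior, treatment of zeros and drop-outs, block and samples.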

Additional observations from a re-analysis of the deposited data

How the results depend on the processing

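LOC_Os01g04380 and LOC_Os03g15960 stayed higher and past the threshold under all 18 alternatives tried, with log2 fold changes between 1.56 and 1.61 and between 2.24 and 2.41 when 1 sample was left out. LOC_Os01g04380 had 1.66, 1.74 and 1.68, and LOC_Os03g15960 2.42, 2.43 and 2.44, under TMM scaling, quantile normalization and scaling by the sum of all but the 100 most abundant genes. The count of members called higher, 2 in the report, was between 2 and 3 with 1 sample left out, and 4 both with drop-outs set to missing and without both samples numbered 2 (settings added after seeing the data); the count of members called lower was 0 throughout. LOC_Os01g04370 had a log2 fold change of -0.03 with single zeros set to missing, between -0.03 and 4.06 with 1 sample left out, and 1.75 and past the threshold under both added settings. LOC_Os01g04350 lay between -0.41 and 0.57 with 1 sample left out and reached 0.64 without both samples numbered 2 (adjusted p = 0.031). The fitted value of LOC_Os01g04360, listed at 0 under normal temperature, depends on the pseudocount and is no bound; it was 2.33, or 4.47 at a pseudocount of 0.1, between 1.74 and 3.50 with 1 sample left out, and 3.50 and past the threshold with single zeros or drop-outs set to missing. The settings that set values to missing drop low values by construction. For LOC_Os01g04370, setting single zeros to missing dropped normal temperature sample 2 (0 FPKM) but kept high temperature sample 2 (9.01 FPKM). Setting drop-outs to missing dropped both. For the other settings the cause was not tested.

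The labels give samples of both groups the numbers 1 to 3, but same-numbered samples did not deviate together (correlations of deviations from the group means over 17050 genes -0.017, -0.003 and 0.004). With the number as a replicate block, LOC_Os01g04370 kept 2.28 and passed (adjusted p = 0.038), LOC_Os01g04380 and LOC_Os03g15960 passed with adjusted p = 0.0048 and 0.0067, and 1657 genes were called higher and 2910 lower, against 2222 and 3887 without it.

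Over all genes, the count called higher was 1433 at a minimum mean of 2 FPKM (11450 genes tested) and 1453 without both samples numbered 2, where 2353 were called lower. Depth is unknown, so no detection limit can be given for values of 0.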

Other observations

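Some genes of the other heat shock lists also had values that differed widely between samples of 1 group, and are given here as values only. The endoplasmic reticulum form HSP23.2 (LOC_Os04g36750) was listed at 13.85 FPKM in high temperature sample 3 and at 0 in the other 5 samples. HSP82A (LOC_Os04g01740) had 1.60, 22.93 and 1.73 FPKM under high and 0.16, 0.17 and 0.19 FPKM under normal temperature, without overlap of the groups, and did not pass (limma, adjusted p = 0.12). LOC_Os03g60620, of the HSP70 list, had 2.60, 19.82 and 21.12 FPKM under high and 4.49, 3.81 and 4.02 FPKM under normal temperature. LOC_Os05g38530, of the same list, had 13.17, 13.83 and 12.80 FPKM under high and 11.52, 0.35 and 1.55 FPKM under normal temperature. The reverse of the LOC_Os01g04370 pattern, at least 5 FPKM in both samples numbered 2 and more than 10 times the highest of the other 4, was met by LOC_Os03g56220, with 0, 5.14 and 0 FPKM under high and 0, 6.60 and 0 FPKM under normal temperature.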
